A study of Homo sapiens with 6 samples.

Results

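The genes described here are 37 genes of mitosis and the G2/M transition, listed by symbol and grouped by what their proteins do in cell division. All 37 were found among the 23284 genes of the deposited expression tables, and all 37 reached the level used to keep a gene for testing, at least 1 FPKM (fragments per kilobase of transcript, scaled to sequencing depth) in at least 2 libraries, as 12135 genes did. The libraries came from HEC-1B, an established line of human endometrioid carcinoma, a cancer of the lining of the uterus. The cells were studied by their aldehyde dehydrogenase (ALDH) activity, a marker used for stem-like tumour cells, and the series asks how expression differs with the speed at which ALDH1A1-low cells turn into ALDH1A1-high cells. There were 6 libraries in 3 groups of 2. The high-potential accelerated group is HEC-1B labelled as having high ALDH potential and an accelerated ALDH-high state, the parental accelerated group is HEC-1B without the potential label but with the same accelerated state, and the high-to-low group is HEC-1B labelled as passing from ALDH-high to low. The descriptions of all 6 libraries carry the words ALDH-high, and no time, dose or treatment is given for any of them. All 3 groups are of this 1 line.

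Entry into mitosis is driven by cyclin-dependent kinase 1 bound to A- and B-type cyclins, with Polo-like and Aurora kinases acting on centrosomes, chromosomes and the spindle. Kinetochores tie chromosomes to spindle microtubules, and the spindle checkpoint holds back the anaphase-promoting complex (APC/C), a ubiquitin ligase, until all chromosomes are attached. The messages of these genes build up from late S phase to mitosis and decline in G1, so in a population of growing cells they are read as markers of proliferation. Many of their promoters carry a CHR element, bound by complexes built on the MuvB core with B-MYB and FOXM1 or with DREAM repressors, and CCAAT boxes, bound by the factor NF-Y.

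Promoters of 5 of the genes are printed because the comparisons below turn on them: HMMR, PLK1, CCNB1 and AURKB differed between groups in 1 of the fits, and CDC20 had a wide difference between replicates in every group. Each is the 250 bases before the annotated RefSeq gene start (build GRCh38.p14), read on the strand of the gene, with matches to the CHR letters TTTGAA or the CCAAT letters CCAAT, on either strand, in capitals. Where both motifs, or repeats of 1 motif, overlap or abut they run together as 1 stretch of capitals. HMMR lies at chr5:163460382-163460631 on the plus strand, PLK1 at chr16:23678639-23678888 on the plus strand, CCNB1 at chr5:69166900-69167149 on the plus strand, AURKB at chr17:8210226-8210475 on the minus strand and CDC20 at chr1:43358731-43358980 on the plus strand.
HMMR: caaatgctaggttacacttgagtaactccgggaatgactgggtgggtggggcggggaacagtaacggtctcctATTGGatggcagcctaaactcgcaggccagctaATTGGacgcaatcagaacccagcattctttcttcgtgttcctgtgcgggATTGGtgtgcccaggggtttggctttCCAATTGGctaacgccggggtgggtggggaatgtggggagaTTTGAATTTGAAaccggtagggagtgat
PLK1: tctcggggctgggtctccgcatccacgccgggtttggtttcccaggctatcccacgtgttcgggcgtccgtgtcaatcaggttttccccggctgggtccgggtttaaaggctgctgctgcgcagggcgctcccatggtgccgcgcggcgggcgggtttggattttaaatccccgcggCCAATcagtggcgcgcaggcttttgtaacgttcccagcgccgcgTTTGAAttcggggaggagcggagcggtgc
CCNB1: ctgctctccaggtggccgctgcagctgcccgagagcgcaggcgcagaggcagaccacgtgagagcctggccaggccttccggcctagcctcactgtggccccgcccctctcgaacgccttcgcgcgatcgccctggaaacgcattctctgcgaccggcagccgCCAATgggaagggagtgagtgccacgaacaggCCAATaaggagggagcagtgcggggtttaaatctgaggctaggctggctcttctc
AURKB: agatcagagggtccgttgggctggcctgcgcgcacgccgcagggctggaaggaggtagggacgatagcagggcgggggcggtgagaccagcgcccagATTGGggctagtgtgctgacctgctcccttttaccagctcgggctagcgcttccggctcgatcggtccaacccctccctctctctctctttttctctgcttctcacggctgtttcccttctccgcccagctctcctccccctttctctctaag
CDC20: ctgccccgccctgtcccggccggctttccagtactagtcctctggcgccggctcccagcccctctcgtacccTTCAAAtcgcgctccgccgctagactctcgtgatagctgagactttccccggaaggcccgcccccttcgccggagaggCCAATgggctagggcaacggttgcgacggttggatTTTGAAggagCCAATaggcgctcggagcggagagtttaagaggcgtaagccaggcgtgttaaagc
The HMMR window holds 2 CHR and 5 CCAAT matches, PLK1 holds 1 of each, and CDC20 holds 2 of each. CCNB1 holds 2 CCAAT matches and AURKB holds 1, and neither has the CHR letters in this window.

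Among the 31 of 37 genes with an entry in the promoter table, 17 (54.8%) had the CHR letters, against 13.6% of all 27167 promoter windows of the same length. CCAAT occurred in 25 (80.6%), against 33.1% of all windows, and both together in 15 (48.4%), against 4.87%. The E2F letters TTCCCGC, searched on both strands, were in the windows of CDCA3 and CENPA (6.45%), against 5.59% of all. CENPE, KIF2C, NDC80 and NUF2 had neither CHR nor CCAAT letters. AURKA, FOXM1, UBE2C, TPX2, TTK and BIRC5 had no entry. These matches describe letters in a window and were not tested against binding or expression.

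Relative depth, read from the lowest values and set to 1 in high-potential replicate 1, ran from 0.818 to 1.07. This ratio equals sequencing depth only if the libraries were scaled by their totals, which is not known. It was 0.818 in high-potential replicate 2, 0.938 and 0.911 in the parental accelerated pair and 1.07 and 0.938 in the high-to-low pair. Replicate 2 had the lower ratio in each group, in the parental accelerated pair by about the 3% tolerance of the method. Between 11392 and 11726 genes reached 1 FPKM. Of 6 epithelial markers, KRT8, KRT18 and KRT19 were at 16.9 FPKM or more in each library EPCAM at 2.16 to 10.6 and MUC1 at 0.156 to 1.09, while CDH1, which defines many epithelial cells, did not exceed 0.0868. The summed level of 6 leukocyte markers lay between 0.749 and 2.4 FPKM, with CD3E listed at 0 in each library, that of 4 endothelial markers between 0.0113 and 0.991, with PECAM1 at 0, and that of 6 fibroblast markers between 0.120 and 0.603, with COL3A1 and DCN at 0. In what follows the value of replicate 1 is given first in each group.

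All 37 genes were expressed in all 6 libraries, and the libraries differed from each other more by replicate number than by group. Replicate 2 was higher than replicate 1 in all 3 groups for 35 of the 37 genes, a pattern that 24.7% of the 12135 kept genes showed. For 29 of the 37 (78.4%) the 3 replicate 2 libraries all lay above the 3 replicate 1 libraries, against 11.6% of kept genes, and for none did they all lie below. The median difference, replicate 2 minus replicate 1 on the log2(FPKM + 1) scale, was 0.59 in the high-potential group, 0.87 in the parental accelerated group and 0.72 in the high-to-low group, where the medians of all kept genes were 0.00. Within a group the difference rests on 1 library against 1 other. Over the 3 pairs, in a limma fit with terms for the groups and the replicate number, 18 of the 37 genes were called higher in replicate 2 and none lower, against 1.16% of kept genes called higher (141 of 12135). This test was added after the replicate pattern had been seen. The 18 were CCNA2, CCNB1, PLK1, AURKA, BUB1, CDC20, CDCA3, CENPA, CENPE, CDCA8, BIRC5, KIF20A, KIF23, TPX2, HMMR, DLGAP5, ANLN and MKI67. The estimate was above 0 for all 37, led by BUB1 (1.22, SE 0.194, limma adjusted p = 0.0462), CDC20 (1.16, SE 0.117, limma adjusted p = 0.0454) and AURKA (1.13, SE 0.128, limma adjusted p = 0.0454). The calls, though not the direction, rested on scaling and on single libraries: there were none after quantile normalization (median 0.66) or without any 1 of the parental accelerated or high-to-low libraries (medians 0.64 to 0.77), 3 without high-potential replicate 1 and 6 without its replicate 2. In bulk RNA a greater share of dividing cells cannot be told apart from more of these messages per cell. Relative depth was lower in replicate 2 in each group. It went from 1 to 0.818 in the high-potential group and from 0.938 to 0.911 in the parental accelerated group. In the high-to-low group it went from 1.07 to 0.938. The part of depth in the pattern was not tested.

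**Figure D1:**
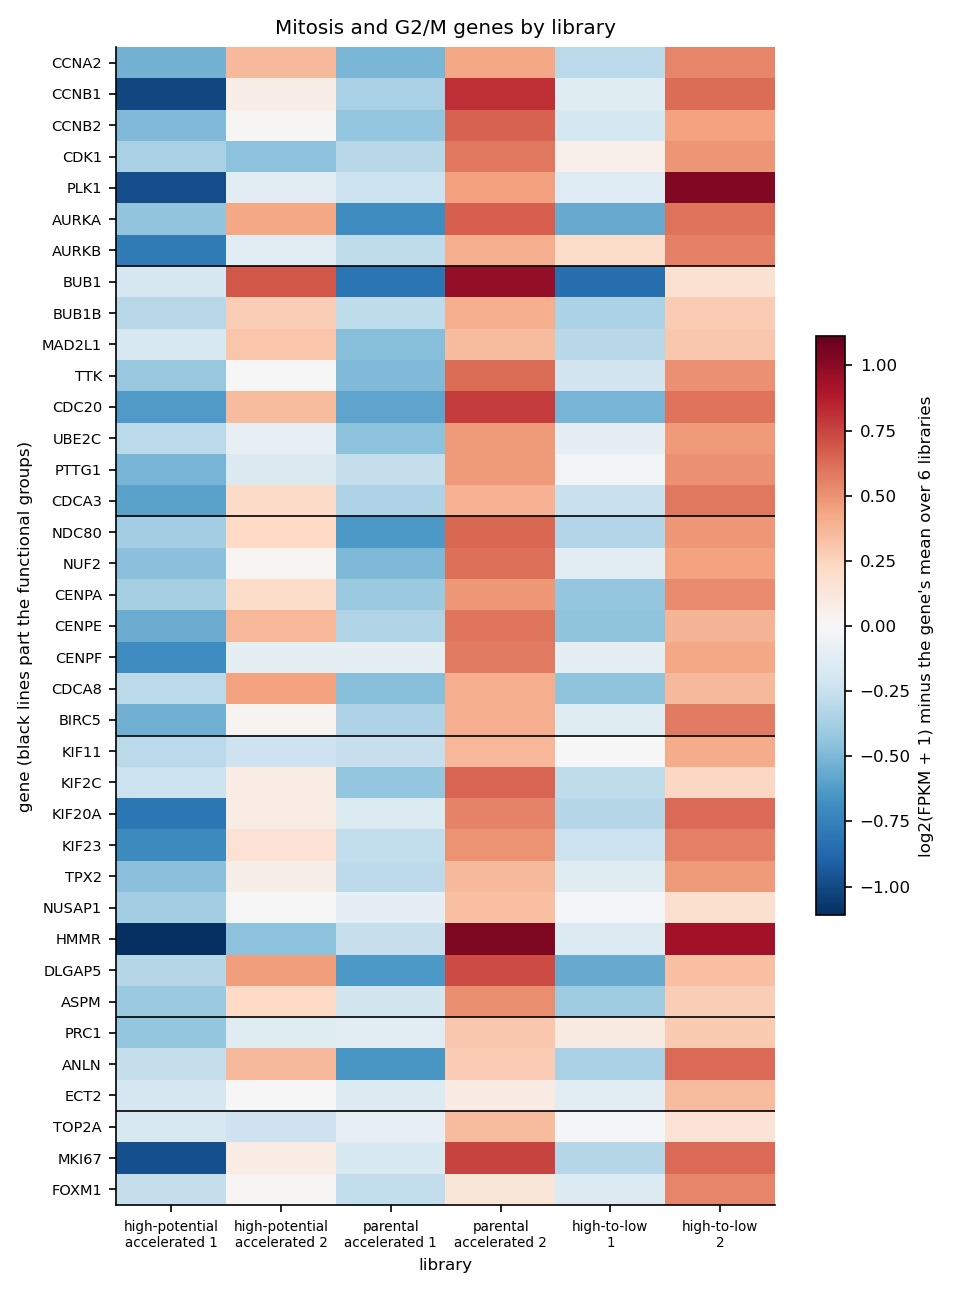
Heat map of the 37 genes (rows, parted by function) in the 6 libraries (columns). Colour gives log2(FPKM + 1) minus the gene's own mean over the libraries, blue for lower and red for higher. The 3 columns of replicate 1 are mostly blue, parental accelerated and high-to-low replicate 2 are red, and high-potential replicate 2 is paler than the other replicate 2 libraries.

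The cyclins and mitotic kinases show the pattern gene by gene. CCNB1, cyclin B1, the partner of CDK1 at mitotic entry, was at 143 and 305 FPKM in the high-potential libraries, 225 and 509 in the parental accelerated pair and 263 and 447 in the high-to-low pair. All 3 replicate 2 values lay above all 3 replicate 1 values, and high-potential replicate 1 was the lowest library, 3.55-fold under parental accelerated replicate 2. CCNA2, cyclin A2, which acts from S phase into early mitosis, was at 35 and 65.4, 35.3 and 68.6, and 41.1 and 74.3 FPKM in the same order. Here the groups nearly coincided at each replicate number, and the replicates of a group differed by 1.81-fold to 1.94-fold. CCNB2, a second B-type cyclin, ran from 115 in high-potential replicate 1 to 256 FPKM in parental accelerated replicate 2.

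CDK1, the kinase itself, departed from the other cyclin and kinase genes: it was at 157 and 147 FPKM in the high-potential libraries, 163 and 304 in the parental accelerated pair and 209 and 284 in the high-to-low pair. Both high-potential libraries lay below the other 4, and their replicates differed by 0.09 on the log2 scale, with replicate 2 the lower. PLK1, the Polo-like kinase of centrosomes and mitotic entry, was at 26.7 and 49.4, 45.5 and 74.4, and 48.6 and 111 FPKM. High-to-low replicate 2 was its highest library and high-potential replicate 1 its lowest, 4.14-fold apart. AURKB, the kinase of the chromosomal passenger complex, was at 53.2 and 84.9, 75.6 and 122, and 106 and 136 FPKM, so that its high-potential values lay below both high-to-low values. AURKA, the centrosomal Aurora kinase, had no such order of groups: it was at 98.2 and 180.2, 81.8 and 211, and 89.8 and 203 FPKM, with group means between 139 ± 58.0 and 147 ± 91.6 (SD, n = 2).

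Of the 8 genes of the spindle checkpoint and of anaphase ubiquitination, BUB1, a checkpoint kinase at kinetochores, had the widest replicate difference among all 37 genes. It was at 69.2 and 128 FPKM in the high-potential libraries, 44.6 and 156 in the parental accelerated pair and 43.7 and 88.8 in the high-to-low pair. The parental accelerated libraries were thus 3.50-fold apart, and high-potential replicate 1 was the highest of the replicate 1 libraries, the reverse of its place for CCNB1 or PLK1. BUB1B, which encodes the checkpoint protein BUBR1, was at 24.4 and 36.9, 24.8 and 40.6, and 23.6 and 37.2 FPKM, with the groups close together at each number. CDC20, the activator of the APC/C that the checkpoint inhibits, was at 109 and 218, 113 and 293, and 119 and 259 FPKM. Its replicate 2 values were 1.99-fold to 2.59-fold those of replicate 1, while the 3 groups were close together at number 1.

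UBE2C, the ubiquitin-conjugating enzyme of the APC/C, was the most abundant of the 37 genes by mean FPKM, at 434 and 502, 389.7 and 745, and 499.7 and 743 FPKM. PTTG1, securin, the inhibitor of separase, was at 232 and 298, 278 and 463, and 326 and 474 FPKM, with both high-potential values below both high-to-low values. PTTG1 has near-identical copies elsewhere in the genome, so its reads may be split among them. MAD2L1, a checkpoint effector, TTK, the kinase MPS1, and CDCA3, an adaptor for ubiquitination at mitotic entry, had fold ranges over the 6 libraries of 1.78, 2.18 and 2.30.

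Of the 7 kinetochore and centromere genes, NDC80, the microtubule-binding subunit of the outer kinetochore, was at 106 and 161 FPKM in the high-potential libraries, 88.4 and 216 in the parental accelerated pair and 110.1 and 193 in the high-to-low pair. NUF2, its partner in the same complex, was at 37.6 and 52.9, 36.7 and 80.5, and 47.9 and 71.4 FPKM. For both genes parental accelerated replicate 1 was the lowest and replicate 2 of that group the highest library. CENPF, a large kinetochore protein that accumulates in G2, was at 11.9 and 18.3, 18.5 and 30.1, and 18.5 and 27.1 FPKM, so the high-potential libraries did not overlap either other group. CENPE, the kinetochore kinesin, was the lowest-expressed of the 37 genes by mean FPKM, at 3.67 and 7.84, 4.43 and 9.36, and 4.02 and 7.91 FPKM. CENPA, the centromeric histone, and CDCA8 and BIRC5, which are borealin and survivin of the chromosomal passenger complex, had fold ranges of 1.95, 1.93 and 2.18.

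Among the 9 genes of spindle motors and microtubule proteins, HMMR, a hyaluronan receptor that also acts at spindle poles, spread most, 4.58-fold over the 6 libraries. It was at 25.8 and 41.4 FPKM in the high-potential libraries, 47.6 and 118 in the parental accelerated pair and 51.0 and 109.6 in the high-to-low pair. Both high-potential values lay below all 4 others, and the other groups were alike at each number. KIF20A, a kinesin of the central spindle, was at 28.3 and 53.1, 44.8 and 73.8, and 40.0 and 77.6 FPKM. KIF11, the kinesin that pushes spindle poles apart, was at 32.3 and 34, 33.4 and 52.0, and 39.8 and 53.5 FPKM, and its high-potential replicates were within 0.07 on the log2 scale. DLGAP5, a spindle assembly protein, was at 43.9 and 76.0, 34.8 and 91.1, and 36.7 and 69.2 FPKM. Like BUB1, AURKA, MAD2L1, CENPA, CDCA8, KIF2C and ANLN, it had high-potential replicate 1 as the highest of the replicate 1 libraries. The other 5 were KIF2C, a microtubule depolymerase, KIF23, a motor of the central spindle, TPX2, the activator of AURKA, NUSAP1, a microtubule-bundling protein, and ASPM, a spindle pole protein. Their fold ranges ran from 1.65 (NUSAP1) to 2.43 (KIF23).

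Of the 3 midzone and cytokinesis genes, PRC1 and ECT2 varied less over the libraries (1.67-fold and 1.46-fold) than ANLN (2.44-fold). PRC1, which bundles the antiparallel microtubules of the midzone, was at 77.3 and 95.1, 95.6 and 129, and 112 and 129 FPKM. ECT2, the exchange factor that activates RhoA at the cleavage furrow, had the narrowest range of the 37 genes, 1.46-fold, at 130.4 and 149, 134 and 158, and 137 and 189.8 FPKM. ANLN, anillin, the scaffold of the contractile ring, was at 79.9 and 123, 61.1 and 117, and 74.7 and 149 FPKM, with replicate 2 above replicate 1 across all groups.

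The last 3 genes act on chromosomes and transcription. MKI67, which encodes the proliferation antigen Ki-67, was at 9.0 and 19.8 FPKM in the high-potential libraries, 16.5 and 32.1 in the parental accelerated pair and 14.8 and 29.5 in the high-to-low pair. TOP2A, the topoisomerase that untangles sister chromatids, was at 211 and 204, 224 and 306, and 237 and 267 FPKM, and shared with CDK1 the flat high-potential pair. FOXM1, the transcription factor that drives many G2/M genes, was at 31.5 and 38.6, 31.4 and 41.8, and 34.2 and 56.0 FPKM. MKI67 thus spread 3.57-fold over the libraries, TOP2A 1.5-fold and FOXM1 1.78-fold.

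Averaged over the 37 genes, log2(FPKM + 1) was 5.83 and 6.41 in the high-potential libraries, 5.96 and 6.83 in the parental accelerated pair and 6.08 and 6.79 in the high-to-low pair. High-potential replicate 1 was the lowest library for 21 of the 37 genes, parental accelerated replicate 1 for 11, high-to-low replicate 1 for 3 and high-potential replicate 2 for 2. Parental accelerated replicate 2 was the highest for 22, high-to-low replicate 2 for 14 and high-potential replicate 2 for 1. The mean difference between replicates within groups exceeded the widest difference between group means for 28 of the 37 genes, against 39.9% of all kept genes. Over the 37 genes the median of the first was 0.74 and of the second 0.36, whereas over all kept genes they were 0.31 and 0.38. The 9 genes whose groups differed more than their replicates were CDK1, PLK1, AURKB, PTTG1, CENPF, KIF11, HMMR, PRC1 and TOP2A.

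The comparison of the high-potential accelerated with the high-to-low group asks whether division genes differ between the cells labelled for high ALDH potential and those passing to the low state. The groups differ both in the potential label and in the state label, and these cannot be told apart here. Of the 37 genes, 32 had a lower mean in the high-potential group and 5 a higher one (BUB1, DLGAP5, CDCA8, MAD2L1 and BUB1B), with a median log2 difference of -0.36 and a range from -1.17 (HMMR) to 0.59 (BUB1). The median of all kept genes was -0.01. No member passed an adjusted p of 0.05 in the limma fit over all genes, in which 0.799% of genes passed (97 of 12135). AURKB was the only one of the 37 with an unadjusted p under 0.05, with a difference of -0.83 (SE 0.331, limma adjusted p = 0.258). By role, the greatest differences were those of PLK1 (-0.99, SE 0.483), BUB1 (0.59, SE 0.65), CENPF (-0.57, SE 0.339), HMMR (-1.17, SE 0.537), PRC1 (-0.48, SE 0.228) and MKI67 (-0.60, SE 0.507), with limma adjusted p between 0.318 and 0.683. The high-potential values lay below both high-to-low values for 8 of the 37 genes (21.6%), namely CDK1, AURKB, PTTG1, CENPF, KIF11, HMMR, PRC1 and TOP2A. This share is near the 26.4% of all kept genes that were lower with no overlap.

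Comparing libraries of the same number removes the difference between numbers only as far as both groups share it. For these groups the replicate differences correlated with Pearson's r of 0.158, the lowest among the pairs of groups. The run of digits in the descriptions starts alike in these groups at number 1 but differently at number 2. Whether number 2 pairs these libraries was not tested beyond that correlation. Against the high-to-low library of the same number, high-potential replicate 1 was lower for 28 of the 37 genes (median -0.22) and replicate 2 for 33 (median -0.41). For 28 genes the high-potential library was lower at both numbers, against 37.6% of all kept genes. With the replicate number as a block in the limma fit, 4 of the 37 genes fell in the high-potential group: HMMR by 1.17 (SE 0.184, limma adjusted p = 0.0273), PLK1 by 0.99 (SE 0.16, limma adjusted p = 0.0288), AURKB by 0.83 (SE 0.143, limma adjusted p = 0.0323) and CCNB1 by 0.71 (SE 0.15, limma adjusted p = 0.0486). In that fit 5.3% of all kept genes were called lower. PLK1, AURKB and CCNB1 are regulators of mitosis and HMMR a spindle protein, and BUB1 at 0.59 did not pass. The block has 2 residual degrees of freedom, and the calls rested on single libraries: none of the 37 passed without high-potential replicate 2, without high-to-low replicate 1 or without high-to-low replicate 2, and HMMR alone passed without high-potential replicate 1. Without parental accelerated replicate 1 there were 6 calls, 5 lower and BUB1 higher. Without the block, which leaves the replicate numbers of the groups unequal when a library is dropped, the median of -0.36 was -0.03 with high-to-low replicate 2 left out and -0.07 with high-potential replicate 1 left out. With the block the same medians were -0.36 and -0.42.

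**Figure D2:**
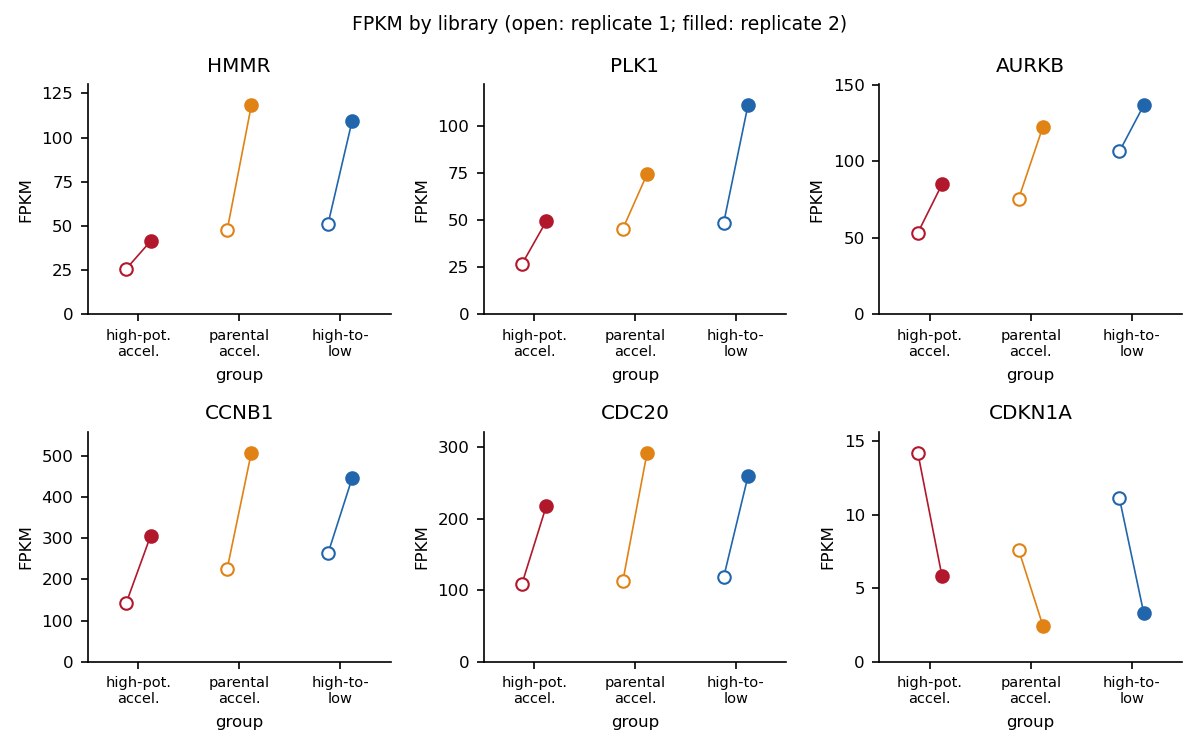
FPKM (vertical axes, from 0) in each library of HMMR, PLK1, AURKB and CCNB1, which were lower in the high-potential group in the fit with a replicate block, and of CDC20 and CDKN1A. Open points are replicate 1 and filled points replicate 2, joined within a group. HMMR in the high-potential libraries (25.8 and 41.4) lies below the other 4, CDC20 differs by replicate number with the groups close together at number 1, and CDKN1A is lower in replicate 2 in each group.

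The comparison of the high-potential with the parental accelerated group sets the 2 accelerated groups against each other, and it shares the high-potential libraries with the comparison above. A lower mean in the high-potential group was found for 31 of the 37 genes and a higher one for 6, with a median difference of -0.25 (all kept genes, 0.00). None passed in the limma fit without a block, where 0.494% of genes did (60 of 12135), and none had an unadjusted p under 0.05. The smallest limma adjusted p was 0.394, that of HMMR (-1.17, SE 0.537). The greatest differences of the other roles were CCNB1 at -0.69 (SE 0.529), PTTG1 at -0.45 (SE 0.33), CENPF at -0.64 (SE 0.339), PRC1 at -0.37 (SE 0.228) and MKI67 at -0.74 (SE 0.507).

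The lower values in the high-potential than in the parental accelerated group lay mostly in replicate 2, where 1 library stands against 1 other. At number 1 the high-potential library was lower for 24 of the 37 genes (median -0.05), and at number 2 for 35 (median -0.42). At both numbers it was lower for 24, against 32.2% of all kept genes. The run of digits in the descriptions of these 4 libraries starts alike within each replicate number and differently between the numbers, so these are also the values within each start, whose meaning no label gives. Without overlap, the high-potential values were below both parental accelerated values for CDK1, CENPF, HMMR, PRC1 and TOP2A, 5 of 37 (13.5%) against 22.3% of all kept genes. With the replicate block HMMR alone was called, lower by 1.17 (SE 0.184, limma adjusted p = 0.0364), in a fit that called 2.97% of kept genes lower. That call was lost when any 1 of the 6 libraries was left out (limma adjusted p 0.0502 to 0.119), although the difference stayed between -0.91 and -1.44. Without the block the median was 0.15 with parental accelerated replicate 2 left out and 0.004 with high-potential replicate 1 left out. With the block the same medians were -0.13 and -0.36. With small RNA genes left out of the scaling, 6 genes passed lower with the block: CCNB1, CENPF, HMMR, KIF20A, MKI67 and PLK1. That fit called 5.77% of all its genes lower.

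The parental accelerated and the high-to-low group differed least. The mean was lower in the parental accelerated group for 23 of the 37 genes and higher for 14, with a median of -0.05 (all kept genes, -0.02). Scaling set the sign of this median: it was 0.04 after quantile normalization and 0.04 with small RNA genes left out. No member passed (all limma adjusted p = 1), nor had any an unadjusted p under 0.05, in a fit in which 0.0165% of kept genes passed. With the replicate block none passed either, the smallest limma adjusted p being 0.875. By role the greatest differences were PLK1 (-0.33, SE 0.483), BUB1 (0.42, SE 0.65), BIRC5 (-0.19, SE 0.372), ASPM (0.21, SE 0.375), ANLN (-0.32, SE 0.451) and FOXM1 (-0.27, SE 0.291). None of the 37 was free of overlap between these groups, although 11.4% of kept genes were higher and 12.7% lower with no overlap. Here too single libraries set the direction, since the median was 0.40 without parental accelerated replicate 1 and -0.48 without its replicate 2. At number 1 the parental accelerated library was lower for 29 genes, and at number 2 for 14.

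**Figure D3:**
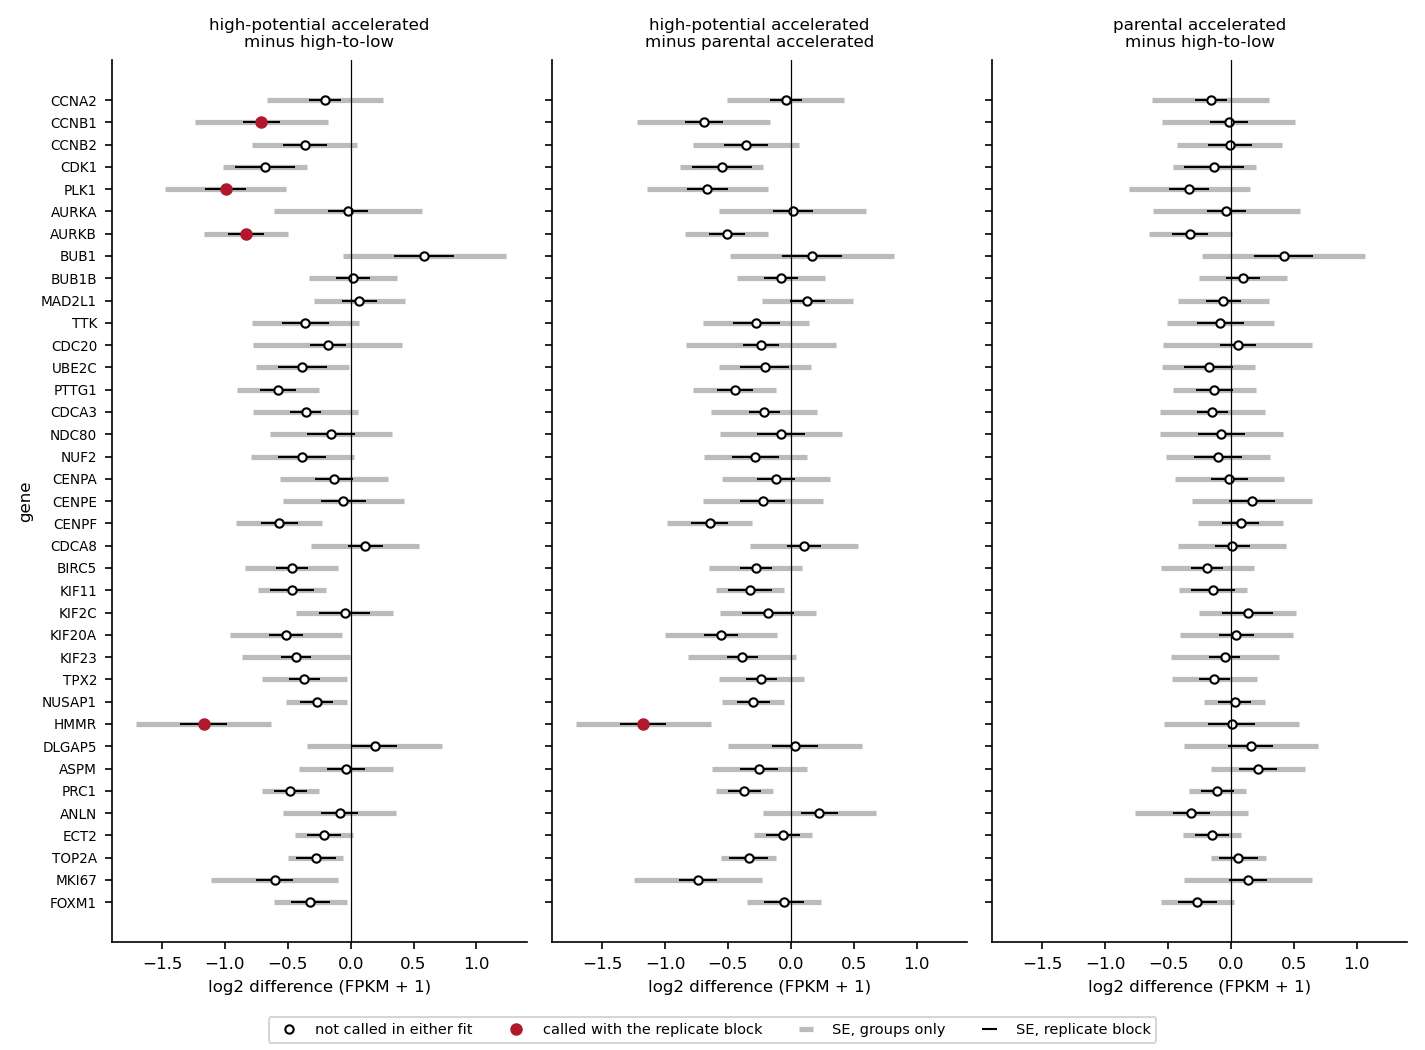
Difference of group means on the log2(FPKM + 1) scale (horizontal axes) for the 37 genes (rows) in the 3 comparisons. Points are the differences, wide grey bars 1 SE in the fit with groups only, and narrow black bars 1 SE in the fit with the replicate block. Red points are the genes called with the block, 4 in the first panel and HMMR in the second. Most points in the first 2 panels lie left of 0, down to -1.17 for HMMR, and those of the third lie around 0.

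Further genes of cell division from lists kept beside the 37 varied with the replicate number in most mitotic lists and less in others. Of all kept genes, 24.7% were higher and 24.5% lower in replicate 2 in all 3 groups. Replicate 2 was higher in all 3 groups for 14 of 15 regulators of mitotic entry (all but WEE1, the kinase that restrains CDK1), 25 of 31 further kinetochore and centromere genes, 19 of 22 further spindle and cytokinesis genes and 13 of 15 genes of cohesin, condensin and separase. It was higher in 15 of 24 genes of DNA replication and S phase, 9 of 15 genes of the APC/C and its regulators, and 8 of 14 genes of the DREAM and MuvB complexes and NF-Y. Among 12 kept CDK inhibitors and G1 regulators replicate 2 was higher in all 3 groups for 1 (CCND3) and lower for 4, CDKN1A, GADD45A, BTG2 and CCND1. These 4 make 33.3% of the list, near the 24.5% of all kept genes. CDKN1A, the p53-induced inhibitor p21, was at 14.2 and 5.82 FPKM in the high-potential libraries, 7.63 and 2.46 in the parental accelerated pair and 11.1 and 3.33 in the high-to-low pair. MYBL2, which encodes B-MYB, was at 80.7 and 129.8, 85.8 and 162, and 90.0 and 162 FPKM, whereas RBL2, the p130 subunit of the DREAM repressor, was at 61.0 and 38.9, 65.9 and 44.0, and 66.6 and 41.7. CDKN1A, MYBL2 and RBL2 were picked after their values were seen.

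**Figure D4:**
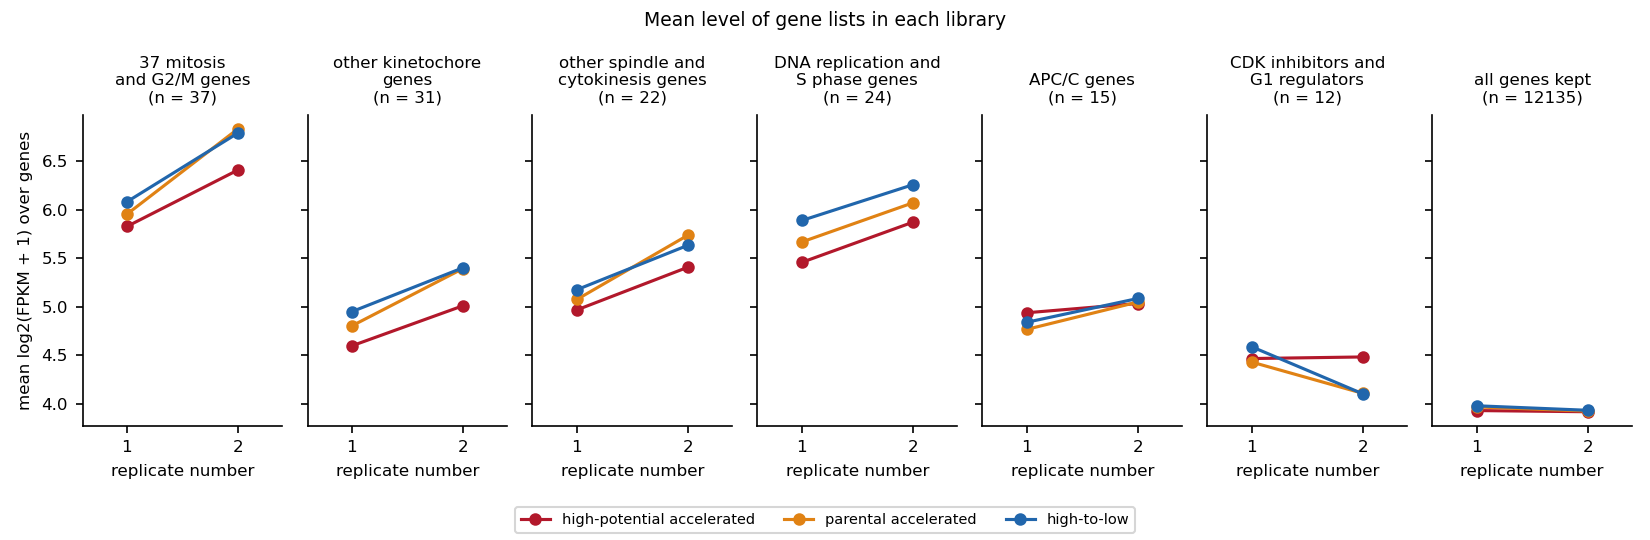
Mean log2(FPKM + 1) over the genes of a list (vertical axis) in replicate 1 and replicate 2 of each group (colours), for the 37 genes, 5 further lists and all kept genes. The lines of the 37 genes go from 5.83, 5.96 and 6.08 at number 1 to 6.41, 6.83 and 6.79 at number 2, whereas those of all kept genes stay between 3.92 and 3.98.

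Between groups, none of the 8 further lists had a gene that passed in the limma fit without a block. Between the high-potential and the high-to-low group, 19 of their 148 kept genes passed with the replicate block, all lower in the high-potential group (against 5.3% of all kept genes). The number called lower was 3 without high-potential replicate 1, 2 without high-to-low replicate 1, 0 without replicate 2 of either group, and 20 or 21 without a parental accelerated library. Of the 19, 7 were kinetochore and centromere genes: CENPI (-1.75), SGO1, which protects centromeric cohesion (-1.28), CENPN (-0.92), BUB3, a checkpoint protein (-0.83), CENPH (-0.72), ZWINT (-0.72) and CENPU (-0.67). CENPI, of the constitutive centromere network, was at 2.28 and 4.35 FPKM in the high-potential libraries, 7.63 and 13.1 in the parental accelerated pair and 10.2 and 16.9 in the high-to-low pair. PKMYT1, a kinase that restrains CDK1, was at 14.7 and 17.5, 30.7 and 36.7, and 38.9 and 52.7 FPKM, a difference of -1.44 (SE 0.142, limma adjusted p = 0.013 with the block and 0.0585 without), and NEK2, a centrosomal kinase, differed by -0.98. Both high-potential values of PKMYT1 and CENPI lay below all 4 others. Among the cell type markers, KRT8 (49.4 and 47.1 FPKM in the high-potential libraries, 90.6 and 108 in the high-to-low) also passed lower with the block, and its part in the result was not tested. The rest were KIF15, a spindle kinesin (-0.98), CEP55, of abscission (-0.71), PIMREG (-0.66), the cohesin subunit STAG2 (-0.80), CCND3, cyclin D3 (-0.82), and 5 genes of S phase.

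The S phase genes included CDC45 (-1.53), GINS2 (-1.12) and MCM2 (-0.94) of the replicative helicase and TK1, a thymidine kinase (-1.04). No gene of the APC/C or the DREAM lists passed, and their differences ran from -0.64 (ANAPC13) to 0.56 (ANAPC4) and from -0.73 (LIN9) to 0.58 (NFYA). Between the accelerated groups, PKMYT1, CENPI, CENPN, BUB3, SGO1, KIF15, STAG2, MCM2, CDC45 and GINS2 were among the genes that passed lower with the block, and CCNE1, cyclin E1, passed higher (1.07). In all 11 of the 148 passed lower, against 2.97% of all kept genes, and none did when any 1 library of the accelerated groups was left out. CCNE1 was at 28.1 and 47.0 FPKM in the high-potential libraries against 12.1 and 23.3 in the parental accelerated pair and 17.7 and 23.3 in the high-to-low pair.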

How the data were processed

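Gene expression was measured by RNA sequencing in 6 libraries of HEC-1B cells in 3 groups of 2, grouped by the sample titles, with the replicate number taken from the same titles. Per the labels' protocols, total RNA came from a miRNeasy kit, cDNA from SMART-Seq v4 and libraries from a Nextera kit, which does not record strand. The authors deposited 1 FPKM value per gene symbol and library, made with TopHat2 2.0.13 and Cuffnorm 2.2.1 on build hg19, per the submitters' processing notes. For the annotation and for the scaling between libraries, the setting is not given in the sources used here. Depth was recovered only as a ratio between libraries, from genes under 0.3 FPKM whose ratios coincided within 3%. That ratio reflects the unknown scaling as well as the depth.

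The 12135 genes that reached 1 FPKM in 2 or more libraries were kept. A limma model with a variance trend (limma 3.58.1, R 4.3.3) was fitted to log2(FPKM + 1) over the 3 groups together, leaving 3 residual degrees of freedom. Because of the added 1, differences of low genes come out smaller than they are. Tests were two-sided, adjusted over all kept genes by the Benjamini-Hochberg method and called at adjusted p under 0.05. This fit, with groups only, was tested on simulated data with independent noise. The fit with the replicate number as a block was not tested in this way. An exact permutation test of 2 libraries against 2 cannot go below p = 0.333, so none was used. No source says that replicates are separate cultures, so the spread behind the p-values is that of these libraries and could be technical.

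The replicate numbers were checked for pairing. Over 12135 genes, the differences of replicate 1 and 2 correlated between groups with Pearson's r of 0.187 (high-potential and parental accelerated), 0.158 (high-potential and high-to-low) and 0.281 (parental accelerated and high-to-low); genes are not independent replicates. Without the 37 genes these were 0.184, 0.155 and 0.277. All exceed 0.1, so the numbers were taken to pair the libraries, and values with the replicate number as a block stand beside the results they change. The pairing comes from the data and the shared numbers, not from a label.

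The 37 genes and all lists were chosen with earlier results of these data known. Values with SE were given for members called, members with an unadjusted p under 0.05 and the greatest difference of each role, and for the other lists the genes called with the block, or the extremes where there were none. The settings varied were the scaling, the pseudocount, the filter on low values, the variance trend, the groups in the fit, a term for the start of the description number, the block, and each library in turn. Repeating the block under these scalings and without each library, testing the genes outside the 37 under each alternative, recomputing replicate differences and testing the replicate number in the blocked fit were added after the data were seen. Promoters are those of RefSeq (GRCh38.p14), used for sequence only. Some genes of the further lists are not reported here.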

Additional observations from a re-analysis of the deposited data

How the results depend on the processing

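Without a block, none of the 37 genes passed in any of the 3 comparisons under any of the 15 other settings, and with the replicate block 4 passed between the high-potential and the high-to-low group and 1 between the accelerated groups. The blocked fit kept all 4 with small RNA genes left out and lost CCNB1 under 3 other settings (a pseudocount of 0.1, quantile normalization and median ratio scaling), and leaving out single libraries gave 0 to 6 calls in the first comparison and 0 in the second, where leaving out small RNA genes gave 6. Replicate 2 stayed higher in 34 to 37 of the 37 genes per group under these scalings, with medians of 0.53 to 0.90; with small RNA genes left out the medians of all kept genes were -0.06, -0.08 and -0.11. Of the replicate term, 18 of the 37 genes were called, 18 with a pseudocount of 0.1, 17 with median ratio scaling, 25 with small RNA genes left out, 0 with quantile normalization and 0 to 6 without single libraries. Over all kept genes, the counts of calls moved with the setting. With small RNA genes left out, the blocked fit called 7.2% of genes lower in the first comparison and 5.77% in the second. Its replicate term called 303 of 12002 genes higher in replicate 2. Between the high-potential and the high-to-low group 97 genes passed, 944 with the block, 39 with no filter, 54 with a pseudocount of 0.1 or a term for the start of the description number and 3 to 129 without single libraries. Between the accelerated groups 60 genes passed, 546 with the block, 38 with no filter, 27 with a filter of 5 FPKM, 31 with a pseudocount of 0.1, 105 with the description-number term and 4 to 39 without single libraries. Between the parental accelerated and the high-to-low group 2 genes passed, and 0 to 7 did under the alternatives.

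The median difference of the 37 genes between the high-potential and the high-to-low group was -0.67 to -0.03 without single libraries (-0.42 to -0.19 with the block), with the values nearest 0 without high-potential replicate 1 (-0.07) and high-to-low replicate 2 (-0.03). Between the accelerated groups it was -0.67 without parental accelerated replicate 1 and 0.15 without parental accelerated replicate 2. With a term for the start of the description number, all 37 genes were lower in both accelerated groups than in the high-to-low group. The medians were -0.66 and -0.40. The 5 and 14 genes that were higher without this term thus turned lower. Among them were BUB1 (-0.0796 and -0.25) and, in the parental accelerated group, ASPM (-0.13). Both high-to-low libraries have the same start, so the term was estimated only from the replicate differences of the accelerated groups. It adjusted those groups for the rise in replicate 2 but left the high-to-low pair as it was. In that pair, replicate 2 was also higher for all 37 genes. These shifts therefore cannot be read as differences between the groups. In the parental accelerated against the high-to-low group, leaving out single libraries gave ANLN from -0.81 to 0.18, ASPM from -0.15 to 0.57, BIRC5 from -0.56 to 0.19, BUB1 from -0.48 to 1.31, FOXM1 from -0.61 to 0.081 and PLK1 from -0.92 to 0.25. Where a library was left out, its lone partner was assumed to vary like the other groups. Depth per library is known only as a ratio, so no counting interval is given.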

Other observations

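To find genes outside cell division with a like pattern, 9970 kept genes were ranked, the division genes included. They had a mean of at least 3 FPKM, and small RNA genes were left out. The rank was by the smallest of the 3 replicate differences where these shared a direction, and the other genes ranked in the middle. Of the 37 division genes, 26 were among the 500 highest in replicate 2, and CDC20, MKI67, BUB1, AURKA, CCNA2 and CENPE were among the first 30. S100A2, a calcium-binding protein, came first, at 9.88 and 47.5 FPKM in the high-potential libraries, 5.70 and 16.2 in the parental accelerated pair and 5.61 and 25.7 in the high-to-low pair. TUBB6, a beta-tubulin, was at 120 and 269, 107 and 293, and 116 and 261 FPKM, and HSPE1, the mitochondrial co-chaperonin, at 140.3 and 264, 105 and 240.3, and 116 and 222. In the other direction, the immediate early gene FOS was at 10.9 and 1.79, 49.9 and 2.2, and 31.6 and 10.2 FPKM, and EGR1 at 3.04 and 0.693, 42.7 and 3.04, and 17.4 and 4.68. PLA1A, a phospholipase, was at 16.7 and 2.80, 25.0 and 5.47, and 27.0 and 6.69 FPKM. These genes were picked after their values were seen and have no test.

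CDKN1C, the CDK inhibitor p57, was at 5.26 and 7.22 FPKM in the high-potential libraries, 2.39 and 1.48 in the parental accelerated pair and 3.06 and 0.940 in the high-to-low pair. Both high-potential values lay above all 4 others, but the difference from the high-to-low group (1.35, SE 0.402, limma adjusted p = 0.161) did not pass; it was picked after its values were seen.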
